A study of Mus musculus with 8 samples.

Results

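The 8 genes described here encode transcription factors of the C/EBP group and of granulocyte formation. They are Cebpd, Cebpe, Cebpg and Cebpz, together with Gfi1, Klf5, Spi1 and Runx1. They were chosen by symbol: every row of the junction table whose Ensembl identifier maps to one of these symbols was taken, and the reads of a gene's junctions were summed. All 8 of 8 were found among the 13378 genes of the table, with 43 exon junctions between them. RNA of FT1CL, a line of acute myeloid leukemia cells from the mouse, was sequenced as 4 Cop1KO and 4 Cop1WT libraries. Cop1KO cells had the genotype Cop1 ko/ko after 4-hydroxytamoxifen, and Cop1WT cells had the genotype Cop1 +/+ and no treatment, so drug and genotype cannot be told apart. Both groups share their origin: bone marrow of Cop1 cKO/Rosa26-Cre-ERT2 genotype from a mouse 8 weeks of age, taken 5 days after 150 mg/kg 5-fluorouracil, transduced with a pMYs retrovirus carrying Trib1 and grown with 5 ng/mL interleukin-3. FT1CL is 1 line, and no label tells if replicate libraries had cultures of their own, so the p-values rest on a spread that may be technical.

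COP1 is the ubiquitin ligase that Tribbles proteins bring to C/EBPα, which is then degraded. C/EBP proteins bind DNA as dimers of basic leucine zippers, and in the granulocyte series C/EBPα acts early and C/EBPε late, when secondary granules are made. PU.1, the protein of Spi1, sets the myeloid programme at high levels, GFI1 is a repressor that neutrophil formation needs, and RUNX1 acts upstream in stem and progenitor cells. Cebpa and Cebpb were not analysed here.

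The libraries held 17333302 to 22469109 junction reads in Cop1KO and 17811247 to 20981993 in Cop1WT. Levels are given as junction reads per 1000000 (RPM). Cop1 itself had 66.7 to 81.3 RPM in Cop1KO, against 159 to 166 RPM in Cop1WT (log2 fold change -1.13, SE 0.08, limma adjusted p = 4.91e-04). Both libraries numbered 4 stood apart from their group: Cop1KO library 4 correlated with the other Cop1KO libraries at 0.934 to 0.941 (0.970 to 0.975 among the rest), and Cop1WT library 4 with the other Cop1WT libraries at 0.948 to 0.956 (0.969 to 0.981 among the rest). Of 14 tested genes that mark myeloid blasts and granulocyte precursors, 4 were higher and 1, Cd34, was lower (8 and 2 with the library number as a block in the fit). Cd34 lost its call without any 1 of Cop1KO libraries 1 or 2 or Cop1WT libraries 2, 3 or 4 (adjusted p 0.0562 to 0.0816) and in edgeR, and Ptprc, one of the 4 higher, without any 1 library except Cop1KO library 4 (0.0557 to 0.0870). The 14 genes' summed level was 3230 to 6397 RPM in Cop1KO and 1241 to 4218 RPM in Cop1WT. Such markers were thus read in every library, but a sum does not settle the cell type. Some were low in Cop1WT, such as Csf3r (0.449 to 15.7 RPM) and Elane (1.91 to 41.4 RPM). Mast cell and basophil genes also had a high summed level in every library, at 12481 to 17647 RPM in Cop1KO and 12424 to 14364 RPM in Cop1WT. Most of that sum was Cpa3, at 9119.5 to 14007 RPM in Cop1KO and 11264 to 12912 RPM in Cop1WT. Cpa3 gave no call (log2 fold change -0.09, limma adjusted p = 0.692). Of the mast cell and basophil genes, 5 of 10 tested were higher and 0 lower (5 and 1 with the block). The 5 were Prss34 (log2 fold change 4.79), Mcpt8 (2.89), Tpsb2 (2.11), Cma1 (1.63) and Ms4a2 (0.96), with limma adjusted p of 0.00293 to 0.0143. Mcpt8 averaged 2381 RPM in Cop1KO and 377 RPM in Cop1WT, so the sum hides changes of single genes. Markers of erythroid cells were lower in 3 of 7 tested and higher in 0 (357 to 1034 RPM summed in Cop1KO, 927 to 1187 RPM in Cop1WT), and those of eosinophils, megakaryocytes and lymphocytes gave 0 of 3, 1 of 5 and 1 of 4 higher and 0 lower. With the block, 5 erythroid markers were lower, 1 eosinophil marker was higher and 1 lower, and 1 lymphocyte marker was higher and 1 lower. The part of these cell markers in the results was not tested.

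Of the 8 genes, 5 were higher in Cop1KO (Cebpd, Cebpe, Gfi1, Klf5 and Spi1), 1 was lower (Cebpz), and Cebpg and Runx1 gave no call in limma. All 8 passed the filter of a mean of 1 RPM. Among the 11003 genes tested, 20.6% were called, 8.49% as higher and 12.1% as lower. The median log2 fold change was 0.92 over the 8 genes and -0.07 over all genes tested. Groups did not overlap for 3 of the 8 (Cebpz, Gfi1 and Klf5), against 25.1% of all genes tested. In each of the 4 pairs of libraries with the same number, the 5 higher genes were above and Cebpz was below its Cop1WT partner. Each fold change below is Cop1KO minus Cop1WT on log2(RPM + 1), and understates the change of genes near 1 RPM. In such bulk RNA, a change in the number of cells of a type and a change in RNA per cell cannot be told apart.

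**Figure D1:**
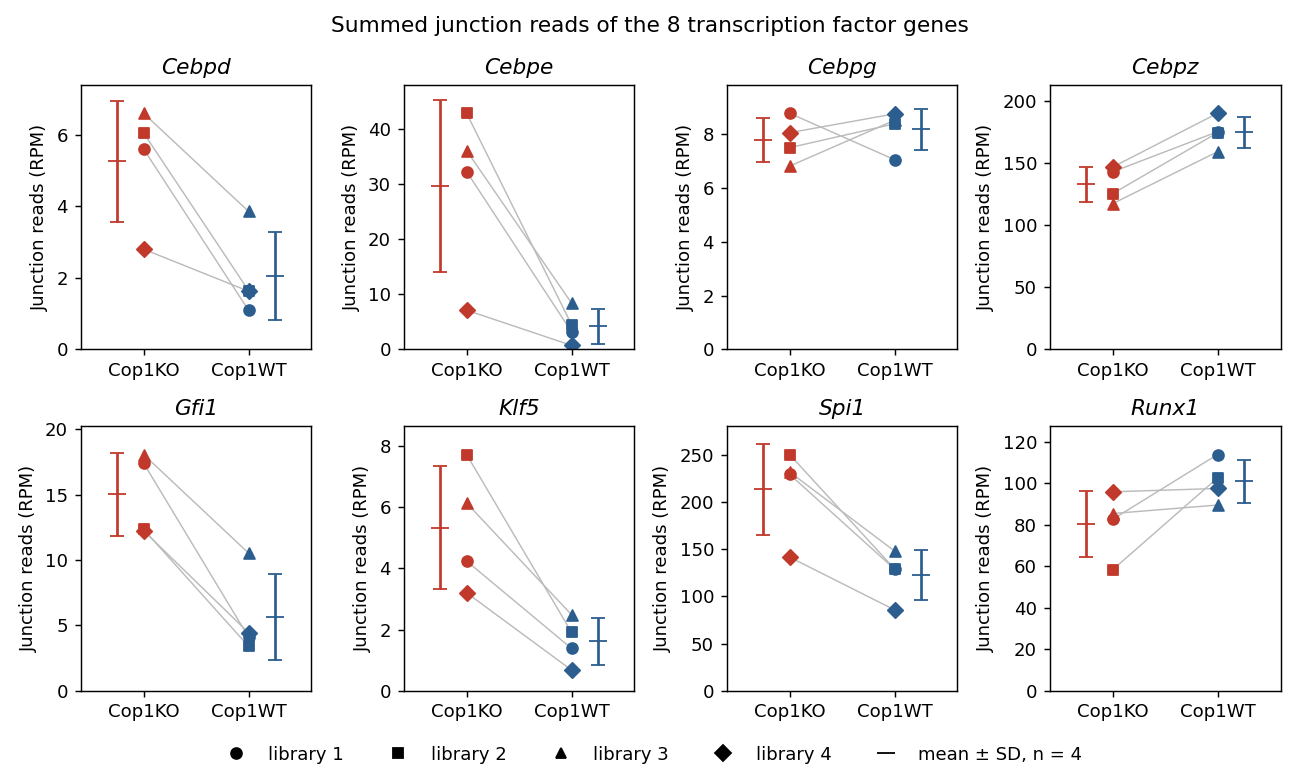
Summed junction reads (RPM, linear axis from 0) of the 8 genes in each library, Cop1KO on the left and Cop1WT on the right. Grey lines join libraries with the same number, marker shapes give the number, and bars give mean ± SD (n = 4). Cebpe reaches 42.9 RPM in Cop1KO and 8.41 RPM in Cop1WT, and Cop1KO library 4 is the lowest Cop1KO library for Cebpd, Cebpe, Gfi1, Klf5 and Spi1.

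Cebpe, the late-acting C/EBP whose loss stops secondary granule formation in mice, had the largest change of the 8. It had 32.3, 42.9, 36.1 and 7.12 RPM in Cop1KO libraries 1 to 4, against 3.19, 4.51, 8.41 and 0.730 RPM in Cop1WT libraries 1 to 4. Cop1KO libraries 1 to 3 were far above every Cop1WT library, while Cop1KO library 4 lay below Cop1WT library 3. The means were 29.6 ± 15.6 RPM in Cop1KO and 4.21 ± 3.21 RPM in Cop1WT (SD, n = 4), and the log2 fold change was 2.55 (SE 0.65, 95% interval 1.06 to 4.03, limma adjusted p = 0.0282). Within same-numbered pairs the Cop1KO level was 4.29 to 10.1 times the Cop1WT level, so library 4, lowest in both groups, had a change as large as the rest. Without both libraries numbered 4 the log2 fold change was 2.65 (SE 0.30). With the library number as a block the SE was 0.22 (limma adjusted p = 0.00214). The call was lost without any 1 of Cop1KO libraries 1, 2 or 3 or Cop1WT libraries 1, 2 or 4 (adjusted p 0.0582 to 0.0790, with log2 fold changes of 2.10 to 2.66). Counts were low in the lowest library, with 13 reads in Cop1WT library 4 and 743 in Cop1KO library 2.

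Cebpe lies on chromosome 14 (build mm10, 54710360 to 54712174, minus strand). It has 2 exons and 1 junction, so its whole value comes from the coding intron at 54710875 to 54711448. Cebpd lies on chromosome 16 (15887286 to 15891031, plus strand) and its coding transcript has a single exon. The 1 junction read for Cebpd was matched to that of the noncoding transcript Cebpd-202 (intron 15888554 to 15889689). The last base before that intron lies 425 bases past the end of the coding sequence. The level of the coding mRNA of Cebpd was therefore not measured by a splice of its own. The joined exon ends, which are what the reads of each gene span, are shown from the mm10 genome with 15 bases before the junction in lower case and 15 after it in capitals.
Cebpe: ttgcgtgtcctcaagGCCCCTGTGGCAGCT
Cebpd-202: gagccacccgaccagGGTGACGACACAGCT

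Cebpd encodes C/EBPδ, a family member induced by inflammatory signals and cytokines. It had 5.61, 6.06, 6.61 and 2.80 RPM in Cop1KO libraries 1 to 4, against 1.10, 1.65, 3.86 and 1.63 RPM in Cop1WT libraries 1 to 4. All but Cop1KO library 4 were above every Cop1WT library, and Cop1WT library 3 was the highest of its group. The log2 fold change of 1.06 (SE 0.32, 95% interval 0.33 to 1.79) had a limma adjusted p of 0.0478, the highest among the 6 calls. It was lost in edgeR (adjusted p = 0.0641), with no filter on low values (0.0540), and without any 1 of Cop1KO libraries 1, 2 or 3 or Cop1WT libraries 1, 2 or 4 (0.102 to 0.124). Over all alternatives the adjusted p of Cebpd ran from 0.0159 to 0.124, and the call held without both libraries numbered 4 (log2 fold change 1.24). The size of the change depended on the scale, with a log2 fold change of 0.54 at a pseudocount of 5 and 1.44 in DESeq2. The gene overlaps Spidr on the opposite strand, and whether the authors' counting used the strand is not given in the sources used here.

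Cebpg and Cebpz, the other genes with C/EBP names, were not higher in Cop1KO. Cebpg encodes C/EBPγ, a short family member that dimerises with the others and has no activation domain of its own. It had 8.78, 7.50, 6.81 and 8.06 RPM in Cop1KO libraries 1 to 4, against 7.05, 8.39, 8.52 and 8.76 RPM in Cop1WT libraries 1 to 4. The groups overlapped almost wholly, and 3 of the 4 pairs were lower in Cop1KO. The log2 fold change of -0.06 had a 95% interval of -0.38 to 0.25 (SE 0.14, limma adjusted p = 0.787), and its sign was positive under TMM scaling, edgeR and DESeq2. The interval of Cebpg holds no log2 change of 1 or more in either direction.

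Cebpz is no leucine zipper protein. It is named for binding a CCAAT box, and its yeast relative Noc1 works in the nucleolus on the large ribosomal subunit. It had 143, 125, 117 and 147 RPM in Cop1KO libraries 1 to 4, against 175, 175, 159 and 190 RPM in Cop1WT libraries 1 to 4. Every Cop1KO library lay below every Cop1WT library, with log2 fold change -0.39 (SE 0.10, 95% interval -0.62 to -0.17, limma adjusted p = 0.0253). The direction held under TMM scaling, edgeR and DESeq2, and the log2 fold change ran from -0.44 to -0.31 over all alternatives. The call was lost without any 1 of Cop1KO libraries 2 or 3 or Cop1WT libraries 1, 2 or 4 (adjusted p 0.0612 to 0.0692). All 15 junctions of Cebpz, on chromosome 17 (78919006 to 78937066, minus strand), had a lower mean in Cop1KO than in Cop1WT. The strongest, between blocks 4 and 5, had 12.5 ± 0.999 RPM in Cop1KO and 15.9 ± 0.589 RPM in Cop1WT (SD, n = 4), and none was called in the test of junction use given further on. Cebpz overlaps Cebpzos on the opposite strand.

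**Figure D2:**
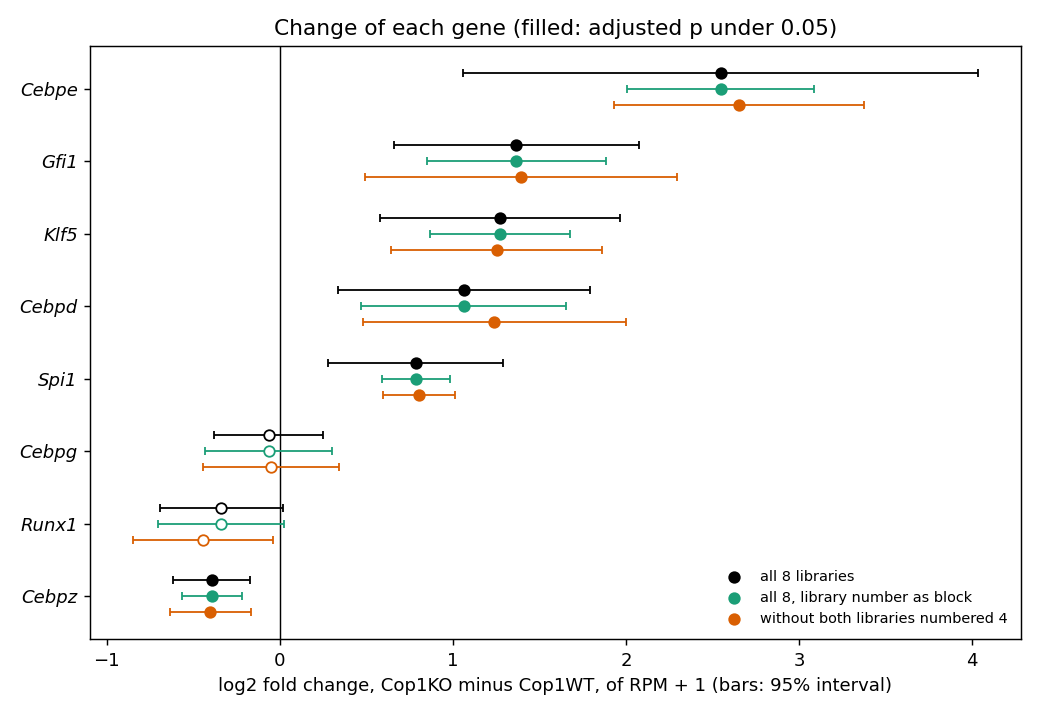
Log2 fold change (Cop1KO minus Cop1WT, of RPM + 1) of the 8 genes with 95% intervals in 3 fits of limma, from all 8 libraries, with the library number as a block, and without both libraries numbered 4. Filled points have an adjusted p under 0.05, as 6 of the 8 genes do in each of the 3 fits. Cebpe lies at 2.55 and Cebpz at -0.39 with all libraries, and the intervals of Cebpg cross 0.

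Spi1 encodes PU.1, an ETS factor of myeloid and B cells whose dose is known to steer the choice between lineages. Per junction it was the most strongly read of the 8 in both groups. It had 230, 251, 232 and 142 RPM in Cop1KO libraries 1 to 4, against 129, 129, 148 and 85.7 RPM in Cop1WT libraries 1 to 4. Cop1KO library 4 lay below Cop1WT library 3, and the library numbered 4 was the lowest of each group. Within pairs, Spi1 was 1.57 to 1.94 times as high in Cop1KO, the narrowest range among the 5 higher genes. The log2 fold change was 0.78 (SE 0.22, 95% interval 0.28 to 1.29, limma adjusted p = 0.0390). The call was lost without any 1 of Cop1KO libraries 1, 2 or 3 or Cop1WT libraries 1, 2 or 4 (adjusted p 0.0737 to 0.101) and from the most-read junction alone (0.0519), in a range of 0.00133 to 0.101 over all alternatives. Without both libraries numbered 4 the log2 fold change was 0.81 (SE 0.09). With the library number as a block the SE was 0.08 (limma adjusted p = 0.00294).

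The 4 junctions of Spi1 from block 3 on, those of its coding transcript (chromosome 2, 91082390 to 91115756, plus strand), had means of 38.9 to 63.7 RPM in Cop1KO and 22.8 to 36.6 RPM in Cop1WT. The junction of blocks 6 and 7, which leads into the last coding exon, had the most reads, with 934 to 1418 in Cop1KO and 430 to 847 in Cop1WT. A further junction, of blocks 1 and 2, belongs to the noncoding transcript Spi1-202. It had 4.44 ± 2.58 reads per 100 reads of a coding junction in Cop1KO and 5.92 ± 1.48 in Cop1WT (SD, n = 4, exact permutation test, two-sided, p = 0.40, BH-adjusted 0.40 over 4 such shares, for which the smallest possible p is 0.0286). So the rise was read on the coding junctions, and the noncoding one made up a small part of the sum. Both are shown, with capitals for the bases after the junction.
Spi1 blocks 6 and 7: tgcacggggagacagGCAGCAAGAAAAAGA
Spi1 blocks 1 and 2: gaccaggaacgagagCCCCGGTTAGAGCGC

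Gfi1, the zinc finger repressor that recruits LSD1 and histone deacetylases, was higher in every Cop1KO library than in any Cop1WT library. It had 17.4, 12.3, 18.1 and 12.2 RPM in Cop1KO libraries 1 to 4, against 4.10, 3.40, 10.5 and 4.44 RPM in Cop1WT libraries 1 to 4. Cop1WT library 3 came near the Cop1KO range and the other Cop1WT libraries did not. The log2 fold change was 1.37 (SE 0.31, 95% interval 0.66 to 2.07, limma adjusted p = 0.0186), and 1.67 without Cop1WT library 3. The call was lost without any 1 of Cop1KO libraries 1 or 3 or Cop1WT libraries 1 or 2 (adjusted p 0.0511 to 0.0584). Cop1WT library 3 also had the highest Cop1WT level of Cebpd, Cebpe, Klf5 and Spi1.

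Gfi1 lies on chromosome 5 (107716657 to 107726036, minus strand) and has alternative first exons. Reads that leave block 1, the first exon of Gfi1-204, made up 94.0 ± 4.79% of first-exon reads in Cop1KO and 89.3 ± 7.94% in Cop1WT (SD, n = 4, exact permutation test, two-sided, p = 0.40, BH-adjusted 0.40). Block 1 gave most of the first-exon reads in every library of both groups, on 41 to 108 reads in Cop1KO and 7 to 38 in Cop1WT. Its junction with block 3 had 3.61 ± 1.54 RPM in Cop1KO and 0.983 ± 0.711 RPM in Cop1WT (SD, n = 4), while that from block 2 had 0.259 ± 0.185 RPM in Cop1KO and 0.171 ± 0.209 RPM in Cop1WT. The first pair of sequences shows that both first exons join the same base of block 3, with capitals for the shared bases.
Gfi1 blocks 1 and 3: gccctgaccccgaagAACTCAGAGTATCCG
Gfi1 blocks 2 and 3: cagctgcagcacgagAACTCAGAGTATCCG

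Promoter windows of RefSeq (build GRCm38.p6, 250 bases before a start site and 50 from it on) matched 3 of the 8 genes, with 5 windows for Gfi1, Cebpg and Runx1. They were searched on both strands for TTNNGCAA (a C/EBP pattern), AGGAAG (an ETS pattern that PU.1 can bind), TGTGGT (RUNX) and AAATCA (GFI1). Of 32851 such windows, 10.8% hold the C/EBP letters, 35.4% the ETS letters, 16.8% the RUNX letters and 14.0% the GFI1 letters. The Gfi1 window at block 2 holds 1 C/EBP match, starting 143 bases before the start site, within the intron that follows block 1. The Gfi1 window at block 3 holds 1 ETS match 108 bases before its start site. The stretch from the first base of that intron to the block 2 start site, minus strand, chr5:107725806-107725954, is shown because Gfi1 was higher in Cop1KO, with the C/EBP match in capitals. The matches in these windows do not overlap, the Cebpg window holds none, and a match describes letters, not binding. The Gfi1 windows, set at blocks 2 and 3, leave unsearched most bases before block 1, the source of most first-exon reads.
Gfi1: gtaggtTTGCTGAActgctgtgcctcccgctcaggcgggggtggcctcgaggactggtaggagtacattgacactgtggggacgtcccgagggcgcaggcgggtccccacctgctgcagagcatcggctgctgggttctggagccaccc

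The sum for Gfi1 includes a junction with values far too low for the gene. The junction of blocks 7 and 8 had 152 and 135 reads in Cop1KO libraries 1 and 4 but 1 and 3 reads in Cop1KO libraries 2 and 3, against 18 to 94 reads in the Cop1WT libraries. The other well-read junctions of Gfi1 showed no such drop in libraries 2 and 3. That of blocks 5 and 6 had 105 and 162 reads in Cop1KO libraries 2 and 3, and 112 and 74 in Cop1KO libraries 1 and 4. With such junctions left out, the log2 fold change of Gfi1 was 1.57 (SE 0.37, limma adjusted p = 0.0195), in a range of adjusted p of 0.00160 to 0.0584 over all alternatives.

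**Figure D3:**
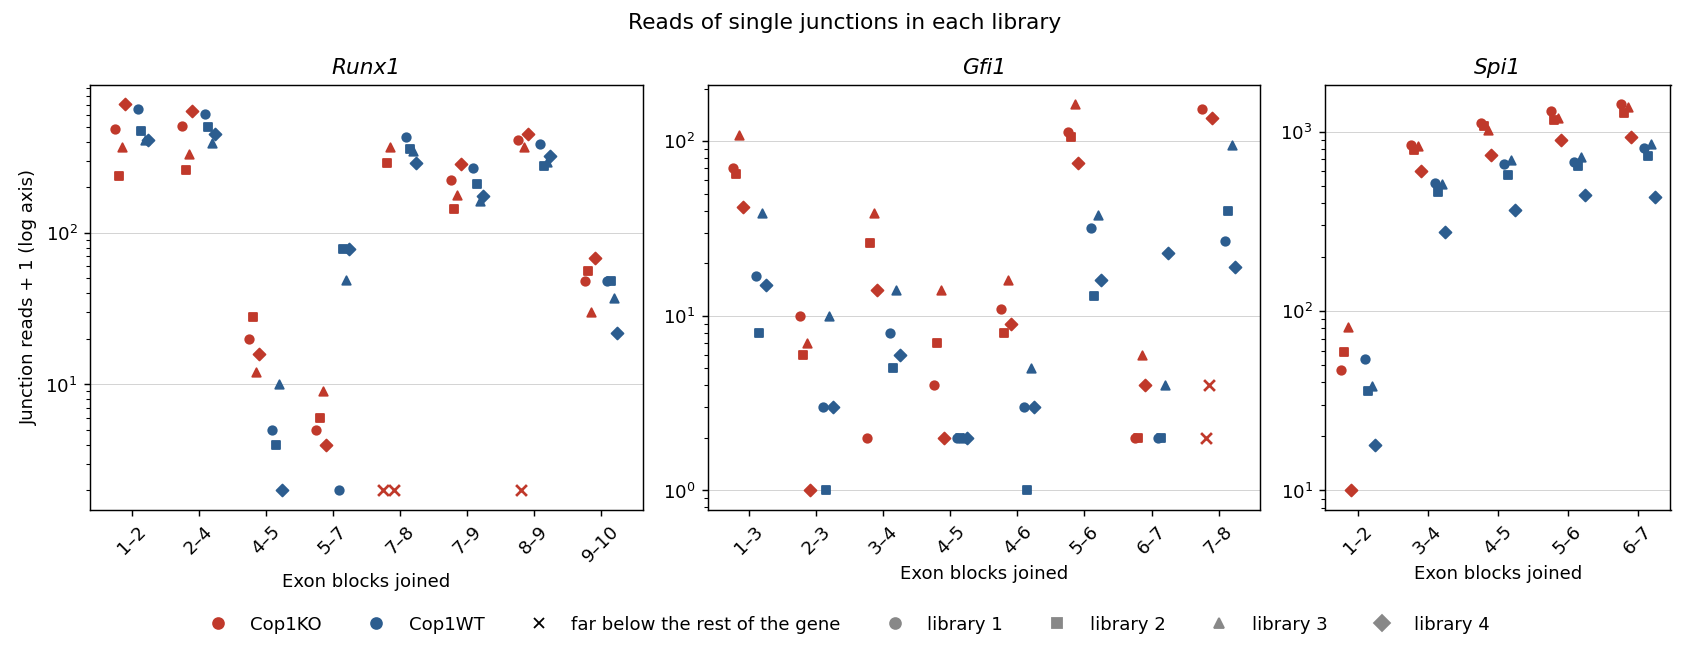
Reads + 1 (log axis) of each junction of Runx1, Gfi1 and Spi1 in the 8 libraries, Cop1KO left and Cop1WT right at each junction, with shapes for the library number. Crosses mark the 5 values far below what the rest of the gene predicts, 3 in Runx1 and 2 in Gfi1, all in Cop1KO libraries and with 1 to 3 reads each. The 4 coding junctions of Spi1 keep the same order of groups.

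Klf5 encodes a Krüppel-like zinc finger factor that acts in growth and differentiation and is known in myeloid cells for a part in granulocyte formation. It had 4.24, 7.73, 6.14 and 3.20 RPM in Cop1KO libraries 1 to 4, against 1.38, 1.91, 2.49 and 0.674 RPM in Cop1WT libraries 1 to 4. No Cop1KO library was as low as a Cop1WT library, and the library numbered 4 was the lowest of each group. The log2 fold change was 1.27 (SE 0.30, 95% interval 0.58 to 1.97, limma adjusted p = 0.0224), on 72 to 134 reads in Cop1KO and 12 to 47 reads in Cop1WT. The call was lost without any 1 of Cop1KO libraries 2 or 3 or Cop1WT library 1 (adjusted p 0.0565 to 0.0672), in a range of 0.00156 to 0.0672 over all alternatives. Klf5 had a log2 fold change of 0.63 at a pseudocount of 5, 0.80 from its most-read junction alone and 1.80 in DESeq2. Each of its 3 junctions (chromosome 14, 99298691 to 99315036, plus strand) had a higher mean in Cop1KO. The lowest of these was 1.43 ± 0.668 RPM in Cop1KO and 0.338 ± 0.181 RPM in Cop1WT, and the highest 2.05 ± 0.693 RPM in Cop1KO and 0.747 ± 0.371 RPM in Cop1WT (SD, n = 4).

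Runx1, a frequent target of leukemia mutations in humans, gave no call. It had 82.7, 58.3, 85.5 and 96.0 RPM in Cop1KO libraries 1 to 4, against 114, 103, 89.6 and 97.6 RPM in Cop1WT libraries 1 to 4. Each Cop1KO library was below its Cop1WT partner, by little in library 4, and the groups overlapped. The log2 fold change was -0.34 (SE 0.16, 95% interval -0.69 to 0.02, limma adjusted p = 0.159). Single junctions of Runx1 held far too low values in Cop1KO. That of blocks 7 and 8 had 1 read in each of Cop1KO libraries 1 and 4 and 287 and 367 reads in Cop1KO libraries 2 and 3, and that of blocks 8 and 9 had 1 read in Cop1KO library 2. With these junctions left out the log2 fold change was -0.23 (SE 0.19, adjusted p = 0.406), and adjusted p ran from 0.0744 to 0.503 over all alternatives.

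Runx1 spans 92601466 to 92826149 of chromosome 16 on the minus strand, and its transcripts start at a distal or a proximal promoter. The junctions of the distal exons were well read in both groups: blocks 1 and 2 had 21.8 ± 7.51 RPM in Cop1KO and 25.1 ± 4.14 RPM in Cop1WT, and blocks 2 and 4 had 21.3 ± 6.37 RPM in Cop1KO and 25.3 ± 3.52 RPM in Cop1WT (SD, n = 4). Reads of the junction of blocks 1 and 2 were found in every library, at 13.6 to 31.3 RPM in Cop1KO and 21.6 to 31.0 RPM in Cop1WT. The distal window of RefSeq holds 2 RUNX matches, 28 and 36 bases after the start site, and 1 ETS match 124 bases before it, while the proximal window holds none of the 4 patterns. The last 30 bases of the distal window, chr16:92826025-92826054, are shown with the RUNX matches in capitals as their reverse complement.
Runx1: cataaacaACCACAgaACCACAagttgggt

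RUNX1 protein is also made without the stretch encoded by block 8. The share of reads that skip block 8 was 35.2%, 33.3%, 32.5% and 38.8% in Cop1KO libraries 1 to 4, against 39.4%, 39.7%, 33.5% and 36.5% in Cop1WT libraries 1 to 4. The means were 35.0 ± 2.81% in Cop1KO and 37.3 ± 2.91% in Cop1WT (SD, n = 4, exact permutation test, two-sided, p = 0.257, BH-adjusted 0.40), a difference of -2.32 percentage points that lay within the spread. Junctions far too low for the gene were left out of the reads that include block 8. The joined ends below show inclusion, then skipping, with capitals for the bases after the junction.
Runx1 blocks 7 and 8: cccgagaaccccgaaGACATCGGCAGAAAC
Runx1 blocks 8 and 9: aaagtcagatgcaggATGCCAGGCAGATCC
Runx1 blocks 7 and 9: cccgagaaccccgaaATGCCAGGCAGATCC

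A further 3 junctions of the Runx1 coding transcripts were low in nearly every library. That of blocks 4 and 5 had 11 to 27 reads in Cop1KO and 1 to 9 in Cop1WT. That of blocks 5 and 7 had 3 to 8 reads in Cop1KO, against 1, 77, 48 and 77 reads in Cop1WT libraries 1 to 4. That of blocks 9 and 10 had 29 to 67 reads in Cop1KO and 21 to 47 in Cop1WT. By contrast, the junctions of blocks 1 and 2, 2 and 4, and 7 and 9 each had at least 143 reads in every library, so the low junctions do not follow the level of the transcripts they belong to. Whether any junction of the 8 genes was used differently was tested with limma's diffSplice for 32 of the 43 junctions, in Cebpz, Gfi1, Klf5, Runx1 and Spi1. None was called, against 0.674% of the 86238 junctions tested in all. Unadjusted values under 0.05 were found for 2, Runx1 blocks 7 and 8 and Gfi1 blocks 7 and 8, and both hold far too low values in Cop1KO. The lowest adjusted p was 0.752.

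Since genes differ in their number of junctions, levels were compared between genes as RPM per junction, leaving out the far too low junctions. Junctions low in nearly every library stayed in and pull down Runx1 and Gfi1, so the places of both in the order are uncertain. For example, the junction of blocks 1 and 2 of Runx1 had 21.8 RPM in Cop1KO and 25.1 RPM in Cop1WT. That of blocks 5 and 6 of Gfi1 had 5.79 RPM in Cop1KO and 1.23 RPM in Cop1WT. Spi1 was highest in both groups, at 42.7 ± 9.75 in Cop1KO and 24.6 ± 5.29 in Cop1WT. In Cop1KO it was followed by Cebpe (29.6 ± 15.6), Runx1 (9.50 ± 2.58), Cebpz (8.88 ± 0.937), Cebpd (5.27 ± 1.69), Cebpg (3.89 ± 0.417), Klf5 (1.78 ± 0.670) and Gfi1 (1.66 ± 0.699). In Cop1WT the order after Spi1 was Cebpz (11.7 ± 0.843), Runx1 (11.0 ± 1.38), Cebpe (4.21 ± 3.21), Cebpg (4.09 ± 0.383), Cebpd (2.06 ± 1.23), Klf5 (0.538 ± 0.257) and Gfi1 (0.470 ± 0.250), all as RPM per junction with SD and n = 4. Cebpe stood beside Cebpg in the Cop1WT order and next to Spi1 in the Cop1KO order. Neighbours in this order whose means differed by less than the larger of their SDs were Spi1 and Cebpe, Runx1 and Cebpz, Cebpd and Cebpg, and Klf5 and Gfi1 in Cop1KO, and Cebpz and Runx1, Cebpe and Cebpg, and Klf5 and Gfi1 in Cop1WT.

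The genes most like each of the 8 over the 8 libraries were found by Pearson's r of log2(RPM + 1) among 7697 or 7698 genes of at least 10 RPM. These values are descriptions: the difference between groups and the low libraries numbered 4 both enter them. Spi1 was most like Cebpe (r = 0.994), another of the 8, and the vesicle transport gene Rab2a (0.994). Cebpe itself was most like Atp6ap2, an accessory subunit of the proton pump (0.998), and Cyba, a subunit of the phagocyte oxidase (0.997), which had 966 RPM in Cop1KO and 478 RPM in Cop1WT. Klf5 was most like Pirb (0.988), an inhibitory receptor of myeloid cells, and Slc8b1 (0.986). Cebpd was most like Rnaset2a (0.985) and the complement gene C3 (0.984), and Gfi1 like Nucb2 (0.981) and Man2b2 (0.969). Cebpz was most like Hsd3b7 (0.995) and Ccar2 (0.991), both also lower in Cop1KO. Runx1 was most like Arid4b (0.965) and Zfp444 (0.963), and Cebpg like Ppp2ca (0.963) and Exosc4 (0.954).

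Relatives, partners and known targets of the 8 genes were counted in 12 lists. Outside the 8, 1 of 7 tested genes among C/EBP partners and CCAAT-binding relatives was higher and 0 lower (median log2 fold change 0.16). That gene was Nfil3, a leucine zipper factor, with 16.9 ± 2.73 RPM in Cop1KO and 3.44 ± 2.25 RPM in Cop1WT (SD, n = 4, log2 fold change 2.26, adjusted p = 0.0189). Its call was lost without any 1 of Cop1KO libraries 1 or 3 (0.0510 to 0.0553) and in edgeR (0.0640), in a range of 7.34e-04 to 0.0640 over its alternatives. Ddit3 and Atf4, which dimerise with C/EBP proteins, gave no call (0.62 and 0.09). Among 27 other granulocyte and myeloid regulators, not all of them transcription factors, 3 were higher and 3 lower (median 0.10). With the block, 7 were higher and 5 lower. Against the 8.49% of all genes tested that were higher and 12.1% lower, nothing particular to this list is read from the main counts. Klf6 (1.77), Klf2 (2.23) and Rxra (2.05) were higher, and Stat3 (-0.60), Cux1 (-0.84) and Zfp36l2 (-0.76) lower, with adjusted p of 0.00267 to 0.0161. Klf6 and Klf2 count again among the 10 Krüppel-like factors beside Klf5, of which 3 were higher and 0 lower (median 0.25), the third being Klf7 (1.20). Of 16 stem and progenitor factors, Fli1 was higher (0.46) and Ldb1 (-0.54) and Lyl1 (-0.45) were lower (median -0.31). With the block, 1 was higher and 6 lower. Lyl1 lost its call without Cop1KO library 1 or 3 (0.0578 to 0.0597). The main counts of this list, too, were near the shares of all genes tested.

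The list of secondary granule and other neutrophil genes known to need C/EBPε had the highest median of the 12 lists. Of 14 tested, 7 were higher and 0 lower in Cop1KO, with a median log2 fold change of 2.41. Over all genes tested the median was -0.07, and 8.49% were higher. Some, such as Cxcr2, a receptor gene among the 7, passed the filter only through Cop1KO (mean 5.13 RPM, against 0.258 RPM in Cop1WT). The count of higher genes and the median thus rest in part on that filter. Of the untested genes, Bpi had a lower mean in Cop1KO, and Fpr1 and Fpr2 a higher one. Lactoferrin (Ltf) had 1732, 4697, 1539 and 142 RPM in Cop1KO libraries 1 to 4, against 2.92 to 8.39 RPM in Cop1WT. Like Cebpe, Ltf was highest in Cop1KO library 2 and lowest by far in Cop1KO library 4, and yet that library was above every Cop1WT library. The others of lowest adjusted p were Ngp (7.73), the iron carrier Lcn2 (5.75) and the protease inhibitor Slpi (3.26). Camp, the cathelicidin, reached 7.50 RPM in Cop1KO and 0.688 RPM in Cop1WT and gave no call (1.05, adjusted p = 0.232).

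Genes that PU.1 is known to activate gave 11 higher and 0 lower of 24 tested, with a median of 1.04. Of all genes tested, 8.49% were higher. Among them were Ncf4 (0.94), a subunit of the phagocyte oxidase, the lipopolysaccharide receptor Cd14 (3.11) and lysozyme (Lyz2, 4.86). Cd14 averaged 12.7 RPM in Cop1KO and 0.467 RPM in Cop1WT, so it passed the filter only through Cop1KO. So did Cybb, also among the 11, with means of 8.35 RPM in Cop1KO and 0.117 RPM in Cop1WT. The count of higher genes and the median thus rest in part on that filter. Lyz2 had 859, 2098, 2099 and 246 RPM in Cop1KO libraries 1 to 4, against 21.2 to 83.6 RPM in Cop1WT. Csf1r, a classical PU.1 target of monocytes, had 80.3 ± 63.8 RPM in Cop1KO and 85.3 ± 49.5 RPM in Cop1WT (SD, n = 4) and gave no call (-0.28, adjusted p = 0.840). Itgam, another, had 811 ± 370 RPM in Cop1KO and 258 ± 126 RPM in Cop1WT and missed the threshold without the block (1.66, adjusted p = 0.0576) and passed it with the block (SE 0.12, adjusted p = 0.00164). The call of Ncf4 was lost from its most-read junction alone (0.0748, the highest over its alternatives). Beside these genes, markers of monocytes and macrophages summed to 761 to 2527 RPM in Cop1KO and 520 to 1032 RPM in Cop1WT, with 2 of 9 tested higher and 0 lower (5 and 0 with the block). The 2 were Cd14 and Ly6c2. Ly6c2 had 768 ± 440 RPM in Cop1KO and 44.4 ± 46.6 RPM in Cop1WT (SD, n = 4, 4.34, limma adjusted p = 0.0172). Its call was lost without Cop1KO library 3 (0.0532). The monocyte and macrophage markers Cx3cr1 and C1qa were under 1 RPM in every library. The part of such cells in the result was not tested.

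Receptor chains known to be under C/EBP, PU.1 and RUNX1 gave 4 higher and 0 lower of 6 tested (median 0.97), where 8.49% of all genes tested were higher. Csf2rb, the chain shared by the interleukin-3 and GM-CSF receptors, had 2231 to 2737 RPM in Cop1KO and 917 to 1321 RPM in Cop1WT. It was one of the targets in which Cop1KO library 4 was not low, at 2659 RPM. Csf2ra (1.06), Il3ra (0.87) and Csf2rb2 (0.68) were the others, and Csf2rb2 lost its call without Cop1KO library 3 (0.0502). Csf3r, the G-CSF receptor, had 12.4 ± 13.5 RPM in Cop1KO and 4.49 ± 7.46 RPM in Cop1WT (SD, n = 4) and gave no call (1.45, adjusted p = 0.366), but was called with the block (SE 0.40, adjusted p = 0.0439). Csf2rb and Csf2rb2 are near-identical neighbours, so the split of reads between them is uncertain.

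None of the corepressors that GFI1 recruits was called higher beside Gfi1. Of 11 tested, 0 were higher and 4 were lower (median -0.28): Rcor2 (-1.02), Hdac2 (-0.60), the demethylase LSD1 (Kdm1a, -0.43) and Prmt5 (-0.51). Kdm1a lost its call without Cop1KO library 3 (0.0527), and Prmt5 without any 1 of Cop1KO libraries 1, 2 or 3 or Cop1WT libraries 2, 3 or 4 (0.0579 to 0.0838). Of 13 genes that GFI1 is known to repress, 2 were higher and 1 lower (median 0.26), and 6 were higher and 2 lower with the block. Against the 8.49% of all genes tested that were higher and 12.1% lower, nothing particular is read from the main counts. The higher ones were the cytokine Csf1 (1.80) and the cell cycle inhibitor Cdkn1a (0.97), and the lower one was Nfkb1 (-0.49). Csf1 lost its call without any 1 of Cop1KO libraries 1, 2 or 3 or Cop1WT libraries 1, 2 or 3 (0.0541 to 0.114) and in 2 other alternatives, and Nfkb1 without any 1 of Cop1KO libraries 1, 2 or 3 or Cop1WT libraries 1, 2 or 4 (0.0651 to 0.121) and in 3 others. Gfi1b, the close relative of Gfi1, had 13.2 ± 4.73 RPM in Cop1KO and 12.0 ± 5.19 RPM in Cop1WT (SD, n = 4) and gave no call (0.14, adjusted p = 0.822).

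Partners of Runx1 and Cebpz were counted in the same way. Of 5 tested genes of the RUNX family, its cofactor and the ETO corepressors, 0 were higher and 1 was lower (median -0.30), the corepressor Cbfa2t3, with 181 ± 38.5 RPM in Cop1KO and 319 ± 39.4 RPM in Cop1WT (SD, n = 4, -0.83, adjusted p = 0.00952). With the block 2 of the 5 were lower. Against the 12.1% of all genes tested that were lower, nothing particular to this list is read from such counts. Runx3 (-0.30), Runx2 (0.87) and Cbfb (0.05), the partner that RUNX proteins need to bind DNA, gave no call. The nucleolar partners of Cebpz were lower in 10 of 19 tested and higher in 0 (median -0.52). Rpf2 had 14.4 to 22.3 RPM in Cop1KO and 32.7 to 39.5 RPM in Cop1WT (-0.91), and Noc3l 43.4 to 56.1 RPM in Cop1KO and 71.0 to 75.7 RPM in Cop1WT (-0.61). Mybbp1a (-0.69) and Ddx18 (-0.64) followed. The call of Noc3l was lost from its most-read junction alone (0.0501, the highest over its alternatives). Unlike Cebpe and Spi1, Cebpz, Rpf2 and Noc3l had their highest Cop1KO level in library 4. Of 8 tested genes of COP1 and the Tribbles proteins, 0 were higher and 2 lower (median -0.30), and 1 was higher and 2 lower with the block. The lower ones in the main fit were Cop1 and Cul4b (-0.33). Cul4b lost its call without any 1 library except Cop1KO library 4 (0.0660 to 0.113) and in 5 other alternatives.

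**Figure D4:**
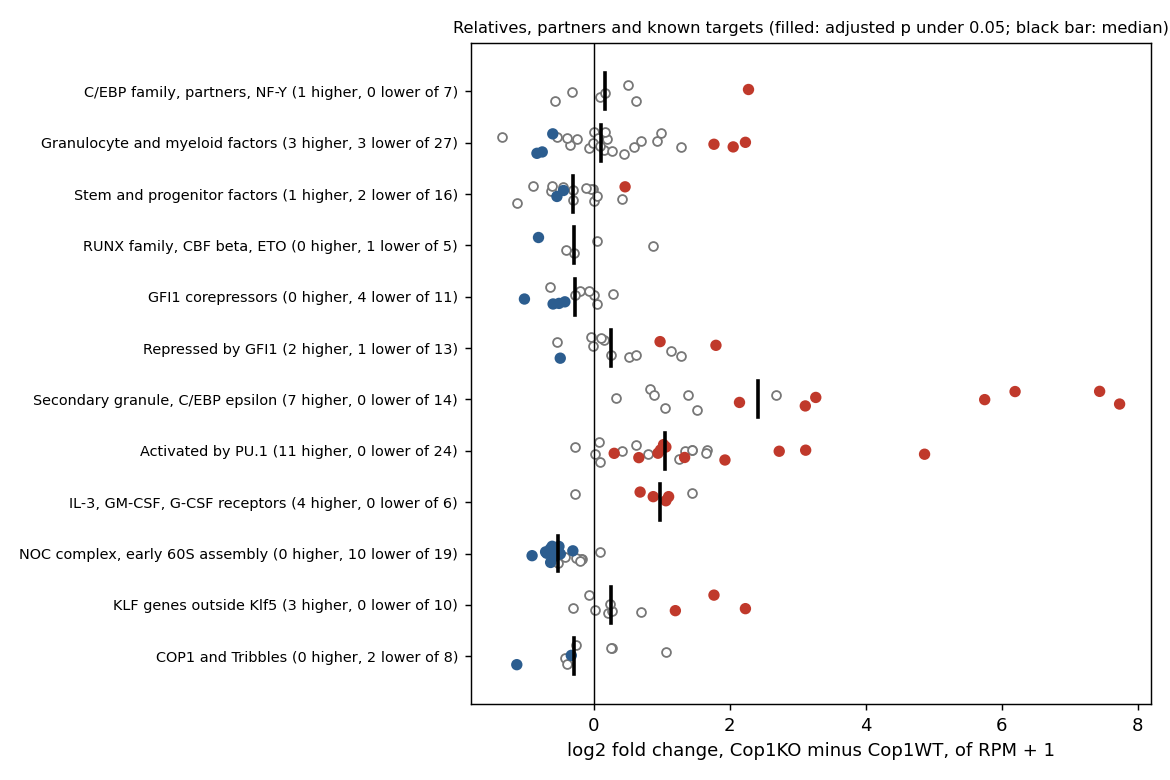
Log2 fold change (Cop1KO minus Cop1WT, of RPM + 1) of the tested genes of 12 lists of relatives, partners and known targets. Filled points passed an adjusted p of 0.05, red for higher and blue for lower in Cop1KO, and open points did not. Black bars give the median, from 2.41 for secondary granule and other neutrophil genes to -0.52 for the nucleolar partners of Cebpz. A gene on 2 lists is drawn in both.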

How the data were processed

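RNA of 4 Cop1KO and 4 Cop1WT libraries (strand-specific, 2 µg each, per the labels' protocols) was analysed. The authors deposited a normalised signal for 134051 junctions. The submitters' processing notes name Trimmomatic 0.39, kallisto and build mm10; the junction counter, annotation and filters are not stated there. Each value was the junction's reads plus 1, scaled by the library total and 60 nt, with 0 reads shown as a shared floor of 0.854. Solving for the reads gave whole numbers for 100% of values above the floor (tolerance 0.001 reads). Fragments may count at more than 1 junction.

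Reads were summed per gene, scaled to RPM and tested with limma 3.58.1 (R 4.3.3; trend, robust) on log2(RPM + 1). Genes averaging 1 RPM or more entered (11003), p-values were adjusted by Benjamini-Hochberg over these, and the threshold was 0.05. edgeR 4.0.16 on the recovered reads called 2021 genes, and DESeq2 1.42.0 was a further alternative. Junction use was tested with diffSplice on log2(RPM + 0.05) for junctions averaging 20 reads or more. A value was called far too low with at most 6 scaled reads where the rest of the gene predicted at least 50 (16907 values in 3388 genes). The fits were tested on simulated data.

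Symbols matched 13247 of 13378 genes. Positions and joined exon ends are from GENCODE on mm10. The table gives numbered exon blocks only, which were matched to merged GENCODE exons by number, so intron positions rest on that match (for Klf5 the numbers differed). For Cebpd the long single exon was first cut at its RefSeq end to give separate blocks. The Gfi1 junction of blocks 4 and 6 matched no intron. The 8 genes, the lists and the tests were chosen with earlier results of these data known. Beside the 8 and Cop1, up to 4 called genes of lowest adjusted p were named from each list, and the 2 most correlated genes for each of the 8; 1 gene so chosen is not reported here. Ddit3, Atf4, Zfp36l2, Camp, Csf1r, Itgam, Csf3r, Gfi1b, Runx2, Runx3, Cbfb, Cpa3, Tpsb2, Cybb, Cxcr2, Bpi, Fpr1 and Fpr2 were added after their values were seen.

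Deviations from group means correlated at 0.32, 0.29, 0.36 and 0.55 for libraries of the same number and at most 0.15 for different numbers. No label says what a shared number marks, so the main fit had no block. Within groups, chi-square between any pair of libraries was at least 30.8 per degree of freedom, so each was counted once.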

Additional observations from a re-analysis of the deposited data

Results flagged for a closer look

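Of 24 groups of 4 libraries checked for a sample far from the others (the level of the 8 genes and 4 shares of reads within them, in each group), 1 stood out, where chance gives about 1 in 20. Gfi1 had 10.5 RPM in Cop1WT library 3, against 3.40 to 4.44 RPM in the other Cop1WT libraries. Of its 199 Gfi1 reads in that library, 94 came from the junction of blocks 7 and 8, against 18 to 39 of 64 to 86 reads in the others. That junction holds far too low values in Cop1KO libraries 2 and 3. The flag may rest on that junction and was not checked without it. Cop1WT library 3 was also the highest Cop1WT library for Cebpd, Cebpe, Klf5 and Spi1.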

How the results depend on the processing

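The number of the 8 genes called was 6, and 4 to 6 under the alternatives that keep all libraries (4 where a mean of at least 10 RPM leaves out Cebpd and Klf5). Leaving out 1 library gave 0 to 6 calls: 2 without Cop1KO library 1, 1 without 2, 0 without 3 and 6 without 4, and 0, 1, 6 and 2 without Cop1WT libraries 1 to 4. For the 8 genes, each call and its lost settings stand beside the gene in the text, and no called gene of the 8 changed direction. The sign of Cebpg turned under TMM scaling (0.0037), edgeR (1.86e-06) and DESeq2 (0.0145). With the replicate block 6 of the 8 were called, it changed no call of the 8, and no junction of theirs was called. With it the limma adjusted p was 0.00214 for Cebpe, 0.00294 for Spi1 and 0.00503 for Klf5. It was 0.00803 for Gfi1, 0.0126 for Cebpz and 0.0249 for Cebpd. The fits that left out 1 library had no block. The block gave 3084 genes in all. Where it moved a list's total of calls by over 1.5 times, the block counts stand beside the list.

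Over all genes 2264 were called, 41.3% of them higher. Under TMM scaling 52.9%, in edgeR 52.2% and in DESeq2 53.9% were higher, and leaving out 1 library gave 1215 to 2991. With the block and the far too low junctions left out, chosen after seeing the data, 3585 genes were called. In the lists 52 genes were called, 35 to 74 without 1 library, 78 with the block, and 85 under that combination. Junction use gave 0 calls in the 8 genes and 0 to 1 without 1 library; the 1 call, without Cop1KO library 2, was Runx1 blocks 7 and 8, which 2 far too low values touch. Reads per Cop1WT library were 23 to 73 for Cebpd, 12 to 47 for Klf5 and 13 to 159 for Cebpe. The cause of the other changes was not tested.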

Other observations

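Of the primary granule genes Mpo, Elane, Ctsg and Prtn3, all but Ctsg were higher in Cop1WT library 3 than in at least 3 of the 4 Cop1KO libraries. Mpo, the myeloperoxidase gene, had 722, 819, 743 and 154 RPM in Cop1KO libraries 1 to 4, against 191, 275, 963 and 149 RPM in Cop1WT libraries 1 to 4. Elane, the neutrophil elastase gene, had 27.0, 28.4, 41.5 and 3.20 RPM in Cop1KO libraries 1 to 4, against 1.91, 5.95, 41.4 and 3.20 RPM in Cop1WT libraries 1 to 4. Neither was called by limma (adjusted p = 0.470 for Mpo and 0.367 for Elane). Prtn3, the proteinase 3 gene, had 28.3, 71.9, 92.8 and 15.7 RPM in Cop1KO libraries 1 to 4, against 33.9, 62.3, 157 and 10.4 RPM in Cop1WT libraries 1 to 4 (adjusted p = 0.969). Ctsg, the cathepsin G gene, had 1846, 1862, 2371 and 1450 RPM in Cop1KO libraries 1 to 4, against 362, 386, 1126.5 and 219 RPM in Cop1WT libraries 1 to 4. Its highest Cop1WT library, again library 3, was below every Cop1KO library, and Ctsg was called higher in Cop1KO (log2 fold change 2.10, SE 0.44, adjusted p = 0.0142, range over alternatives 3.03e-04 to 0.0457). Kit, a receptor of progenitors and mast cells, was lower in each Cop1KO library than in its Cop1WT partner, with 100.5, 101, 67.8 and 27.6 RPM in Cop1KO libraries 1 to 4, against 192, 175, 69.4 and 41.3 RPM in Cop1WT libraries 1 to 4 (log2 fold change -0.58, adjusted p = 0.528, and 0.0413 with the library number as a block). These genes were chosen after their values were seen.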
